A study of Homo sapiens with 18 samples.

Results

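Small RNAs of extracellular vesicles shed by 2 knockout HEK293T clones, ATG12-/- and ATG7-/-, were compared with each other. HEK293T is a human embryonic kidney line. The comparison uses every library of these 2 vesicle groups, 6 of the 18 libraries of the study, and all 2462 small RNA features in its table. The ATG12-/- vesicles came from clone D9 and the ATG7-/- vesicles from clone F2, with 3 libraries each that the labels call biological replicates. All cultures, wild type included, were kept 24 h without serum before vesicles and cells were collected. Each knockout is 1 clone, so the effect of the gene and that of the clone cannot be told apart. The 3 wild-type vesicle libraries entered the fit that sets the spread between replicates, and the cells of the same 2 clones were fitted in the same way as the counterpart in cells. The ATG7 and ATG12 transcripts were not analysed here, so the genotypes were not checked against them.

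ATG7 is the enzyme that activates both ubiquitin-like proteins of autophagy, ATG12 and the LC3 family. ATG12 becomes joined to ATG5, and that conjugate then helps attach LC3 to membrane lipid. Both knockouts therefore block LC3 lipidation, while ATG7 stands one step upstream of ATG12. Small nucleolar RNAs (snoRNAs) guide chemical modification and cleavage of ribosomal RNA. C/D box snoRNAs guide 2'-O-methylation, H/ACA box snoRNAs guide pseudouridylation, and small Cajal body RNAs (scaRNAs) guide the same changes on spliceosomal RNAs.

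Some of the snoRNAs that carried the largest differences are shown with the motifs that define their class, in DNA letters of the transcribed strand, from GENCODE release 29 (GRCh38). ACA61 (SNORA61, chr1:28579764-28579893, minus strand, inside SNHG12) and ACA38 (SNORA38, chr6:31623079-31623210, plus strand, in an intron of PRRC2A) led the H/ACA box snoRNAs, and ACA21 (SNORA21, chr17:38852863-38852994, minus strand, inside RPL23) was the most abundant of them. Capitals mark the last ACA within 8 bases of the 3' end.
ACA61: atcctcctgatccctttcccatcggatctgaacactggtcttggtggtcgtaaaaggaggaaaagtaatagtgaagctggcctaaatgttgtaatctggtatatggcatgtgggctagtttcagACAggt
ACA38: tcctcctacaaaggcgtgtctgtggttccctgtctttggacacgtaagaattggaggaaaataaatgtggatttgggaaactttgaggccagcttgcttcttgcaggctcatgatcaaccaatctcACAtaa
ACA21: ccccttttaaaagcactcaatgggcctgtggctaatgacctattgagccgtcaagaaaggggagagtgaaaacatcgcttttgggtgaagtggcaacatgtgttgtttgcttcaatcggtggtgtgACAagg
snR38A (SNORD1A, chr17:76561634-76561705, plus strand, inside SNHG16) and U18C (SNORD18C, chr15:66501250-66501318, minus strand, inside RPL4) were among the C/D box snoRNAs with the largest changes. U50, whose change lay between theirs, had no sequence in that release. U3 (SNORD3A, chr17:19188016-19188232, plus strand) was the most abundant, and U8 (SNORD118, chr17:8173454-8173587, minus strand, overlapping TMEM107) was abundant but not called. Capitals mark every TGATGA, the core of box C, and the last CTGA, box D.
snR38A: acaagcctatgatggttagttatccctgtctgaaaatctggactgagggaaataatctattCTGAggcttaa
U18C: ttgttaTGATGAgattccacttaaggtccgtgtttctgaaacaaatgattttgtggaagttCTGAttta
U3: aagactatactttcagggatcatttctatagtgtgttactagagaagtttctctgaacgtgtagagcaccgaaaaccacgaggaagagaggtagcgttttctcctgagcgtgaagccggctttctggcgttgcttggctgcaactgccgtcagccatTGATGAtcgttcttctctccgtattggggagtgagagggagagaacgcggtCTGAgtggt
U8: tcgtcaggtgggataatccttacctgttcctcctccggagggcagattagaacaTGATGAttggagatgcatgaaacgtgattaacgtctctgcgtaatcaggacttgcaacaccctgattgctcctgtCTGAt
No exact TGATGA stands in snR38A. Of the 140 C/D box snoRNAs tested, 120 had a sequence, of which 70.8% held TGATGA and 99.2% held CTGA, a short word that also stood in 47.3% of H/ACA sequences. Of 92 H/ACA box snoRNAs, 91 had a sequence and 93.4% of those ended in the ACA motif. The motifs were searched on the transcribed strand only.

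Values are normalised reads, the reads of a library divided by its size factor. The 6 libraries held 2117364 to 3382605 reads assigned to features, and 1 read equals 1.17 to 1.89 normalised reads. Replicates correlated at r = 0.987 to 0.991 on the log2 scale, across features, and their spread was 6.06 to 34.6 times that of counting alone (chi-square divided by its degrees of freedom). A feature was tested where it reached 10 normalised reads in at least 3 of the 9 vesicle libraries, which 850 did. Changes are log2 differences, ATG12-/- minus ATG7-/-, of normalised reads plus 1, with the standard error (SE) of limma's fit. A feature is called at a Benjamini-Hochberg adjusted p below 0.05. Calls were made for 424 of the 850 features (49.9%): ATG12-/- vesicles held more of 226 (26.6%) and less of 198 (23.3%). For 499 features (58.7%) no value of one group lay within the range of the other. The median change over all 850 was 0.00. Because the values are relative within a library, a gain of one class and a loss of another in its share cannot be told apart. Nor can fewer vesicles be told apart from less RNA in each.

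The main difference was one of class. ATG12-/- vesicles held more snoRNA than ATG7-/- vesicles, and less tRNA. Of 256 snoRNAs and scaRNAs tested, 197 were called higher, 0 were called lower and 59 were not called, with a median change of 1.06. Of 467 tRNA genes, 188 were called lower and 11 higher, with a median of -0.26. microRNAs were spread around no change, with 14 of 113 higher, 8 lower and a median of 0.01. Calls in the direction of the class were made for 160 of the 197 snoRNAs and scaRNAs, and for 108 of the 188 tRNA genes, in each of 18 alternative analyses. These 18 leave out the minimum of 50, the fit with 1 value per set of copies and the 3 fits without a wild-type vesicle library.

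**Figure D1:**
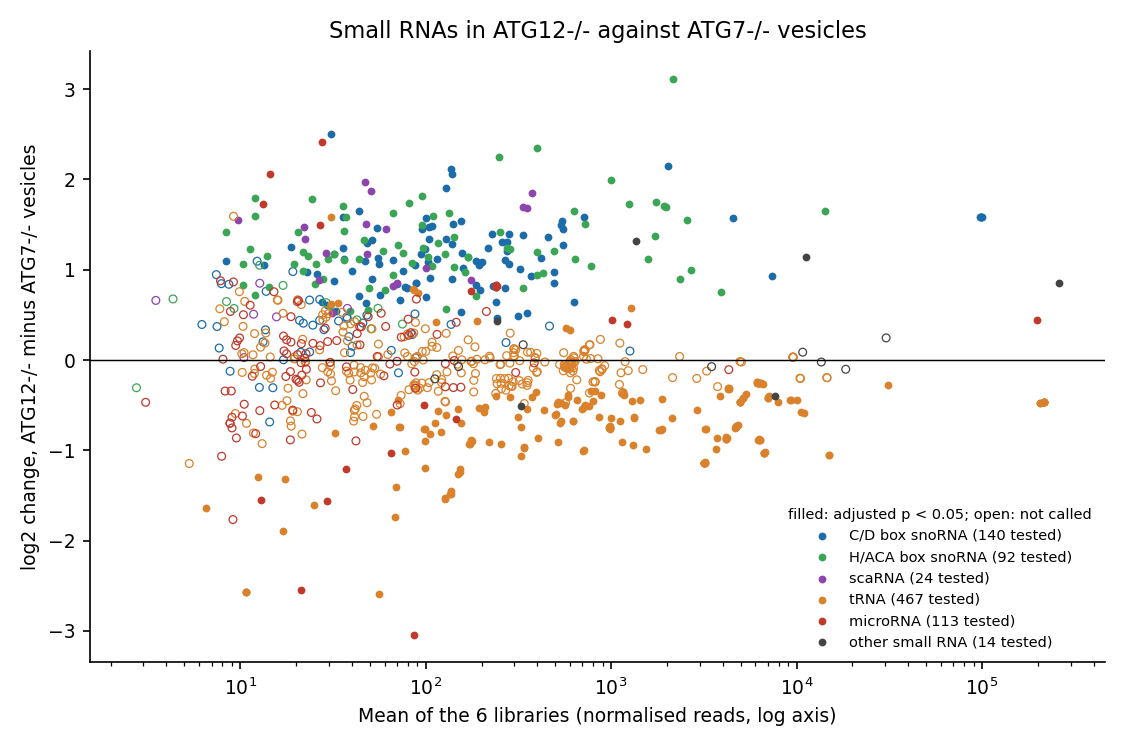
Log2 change between ATG12-/- and ATG7-/- vesicles (vertical axis) against mean abundance over the 6 libraries (horizontal log axis, normalised reads) for the 850 features tested, coloured by class. Filled points are called at adjusted p < 0.05 by limma; snoRNAs lie mostly above 0 and called tRNA genes mostly below it.

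The same contrast stood in the shares of reads, which need no size factor. C/D box snoRNAs took 20.2%, 20.4% and 22.3% of the reads of the ATG12-/- vesicle libraries and 6.15%, 8.44% and 6.77% of the ATG7-/- libraries. Their mean share was 21.0% ± 1.15 against 7.12% ± 1.18 (SD, n = 3 each), beside 22.2% ± 3.05 in wild-type vesicles. H/ACA box snoRNAs took 1.92% ± 0.193 against 0.708% ± 0.132, and scaRNAs 0.0770% ± 0.00973 against 0.0284% ± 0.00233. Spliceosomal snRNAs took 10.3% ± 0.723 against 5.91% ± 0.504.

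tRNA genes took 60.5%, 59.5% and 56.4% of reads in ATG12-/- vesicles and 82.4%, 78.0% and 79.7% in ATG7-/- vesicles, means of 58.8% ± 2.15 and 80.0% ± 2.26. No library of one group reached the values of the other for any of these classes. Each of these differences had an exact two-sided permutation p of 0.1, the smallest possible for 3 against 3 libraries (adjusted p = 0.143 over 10 classes). Y RNAs (1.31% ± 0.0383 against 1.38% ± 0.107) and vault RNAs (0.0209% ± 0.000777 against 0.0228% ± 0.00272) overlapped between groups (exact permutation p = 0.4 for both).

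Most of the C/D share was U3, the snoRNA that directs the first cleavages of the ribosomal RNA precursor. The 5 annotated U3 copies, whose reads cannot be separated, took 19.8% ± 1.17 of reads in ATG12-/- and 6.56% ± 1.11 in ATG7-/- vesicles. Without U3 the C/D share was 1.20% ± 0.0317 against 0.559% ± 0.0775, again with no overlap. With the 5 copies counted once the difference in C/D share came down from 13.9 to 4.16 percentage points. That in tRNA share went from -21.2 to -14.6 percentage points, and that in snRNA share from 4.43 to 6.05. With tRNA copies counted once instead, the tRNA difference was -25.0 percentage points. U3 counted once made up 76.6% ± 1.42 of the C/D reads of ATG12-/- vesicles and 70.05% ± 1.2 of those of ATG7-/- vesicles. microRNAs took 6.50% ± 0.541 against 4.79% ± 0.629, nearly all of it 1 entry, miR-6724-5p. This difference of 1.71 percentage points came down to 0.550 with tRNA copies counted once (exact permutation p = 0.5). The other microRNAs took 0.391% ± 0.00489 against 0.354% ± 0.0204.

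**Figure D2:**
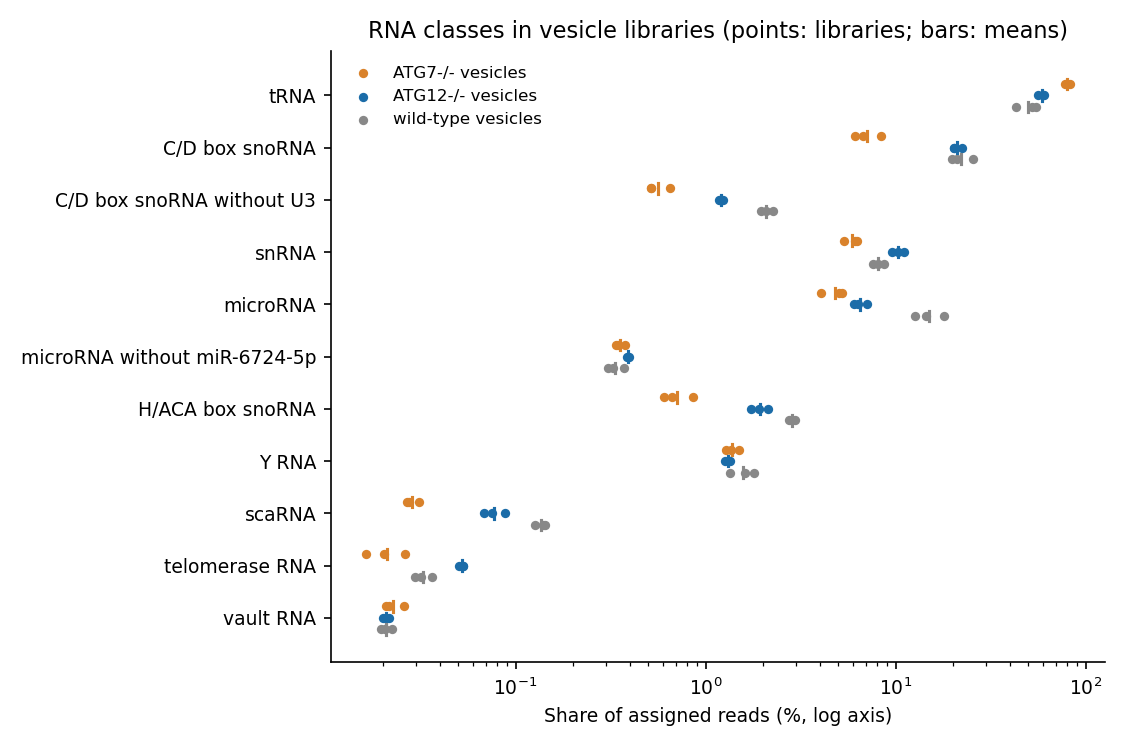
Share of assigned reads per RNA class (horizontal log axis, percent) in each ATG7-/-, ATG12-/- and wild-type vesicle library (points) with group means (bars). snoRNA, scaRNA and snRNA shares are higher in all ATG12-/- than in all ATG7-/- libraries, the tRNA share is lower, and Y RNA and vault RNA shares overlap.

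ACA61, an H/ACA box snoRNA of the SNHG12 gene, had the largest increase. Its values were 4084, 3620 and 3881 normalised reads in ATG12-/- vesicles and 410.1, 552.4 and 385.9 in ATG7-/- vesicles. Every ATG12-/- library was above every ATG7-/- library, by 3.12 (SE 0.15) on the log2 scale, 8.59 times in the means (limma adjusted p = 2.17e-08). Wild-type vesicles averaged 2215 ± 285. The cells of the 2 clones held 419.2 ± 64.9 and 403.4 ± 128, a difference that was not called.

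ACA38 held 845.2, 584.8 and 582.6 normalised reads in ATG12-/- and 118.7, 161.2 and 111.4 in ATG7-/- vesicles. The groups did not overlap and differed by 2.35 (SE 0.18, adjusted p = 2.38e-06, limma). HBI-61 (SNORA81, in EIF4A2) had 461.9, 360.7 and 409.2 against 72.5, 130.8 and 65.0, a change of 2.25 (SE 0.22, adjusted p = 1.17e-05, limma). ACA21, in the ribosomal protein gene RPL23, had 21666, 21249 and 21505 against 6631, 8790 and 5470. That is a change of 1.65 (SE 0.16, adjusted p = 1.17e-05), with the ATG12-/- replicates close together and the ATG7-/- replicates more spread. Of the 92 H/ACA box snoRNAs tested, 81 rose and none was called lower, with a median of 1.14.

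Among C/D box snoRNAs, snR38A had the largest ratio but few reads. It held 64.8, 62.3 and 32.1 normalised reads in ATG12-/- vesicles and 5.27, 9.34 and 10.6 in ATG7-/- vesicles, a change of 2.50 (SE 0.31, adjusted p = 3.14e-05, limma). U50 (SNORD50A, in SNHG5) was well covered, with 3386, 3139 and 3371 against 648.8, 952.9 and 659.1. Its change of 2.15 (SE 0.16) had an adjusted p of 2.38e-06. U18C had 219.2, 198.9 and 254.6 against 48.8, 59.6 and 45.1 (2.11, SE 0.22, adjusted p = 1.44e-05). In all of these the groups stood apart.

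The copy of U3 named U3 in the table held 135776, 143021 and 170920 normalised reads in ATG12-/- vesicles and 44275, 62305 and 44597 in ATG7-/- vesicles. It rose by 1.58 (SE 0.16, adjusted p = 1.24e-05, limma), and the 5 copies lay between 1.58 and 1.59. Wild-type vesicles averaged 118964 ± 26033, between the means of the 2 knockouts. By share of reads the U3 copies stood at 20.1% ± 2.9 in wild-type and 19.8% ± 1.17 in ATG12-/- vesicles. In cells the copy stood at 12025 ± 469 and 12564 ± 2108. Of the 140 C/D box snoRNAs tested, 98 rose, 0 were called lower and 42 were not called, with a median of 0.95.

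The scaRNAs moved in the same direction, with 18 of 24 called higher, 0 lower and a median of 1.09. The most abundant, ACA26 (SCARNA4, in an intron of KHDC4), which is known as an H/ACA-type Cajal body RNA, had 606.7, 616.6 and 541.2 normalised reads in ATG12-/- and 143.7, 179.8 and 164.4 in ATG7-/- vesicles. The groups were far apart, with a change of 1.85 (SE 0.18, adjusted p = 1.17e-05, limma). Of the 256 snoRNAs and scaRNAs, 250 had a change above 0, and none of the rest was called. The lowest was U36A (SNORD36A, in RPL7A) at -0.69, from 17.9 to 10.9 normalised reads (adjusted p = 0.121).

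snoRNAs that take part in cleavage of the ribosomal RNA precursor rose in 13 of 14 entries, with a median of 1.14, or 9 of 10 with U3 counted once. Over all snoRNAs and scaRNAs tested 197 of 256 were called higher (median 1.06), and whether the list differs from them was not tested. U17b (SNORA73B), needed for the small subunit RNA, had 3111, 2775 and 2900 normalised reads in ATG12-/- and 843.9, 1148 and 741.3 in ATG7-/- vesicles, a rise of 1.71 (SE 0.14, adjusted p = 5.22e-06, limma). Its near copy U17a rose by 1.00 (SE 0.18), although reads of such near copies may not be fully separable. U22 (SNORD22, in SNHG1) rose by 0.93 (SE 0.18), E3 (SNORA63) by 1.22 (SE 0.16) and U13 (SNORD13) by 0.64 (SE 0.15). The entry not called was U8, which acts in processing of the large subunit RNAs and whose sequence is printed above.

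U8 stood at 1248, 1256 and 1361 normalised reads in ATG12-/- vesicles and at 1167, 1641 and 905.8 in ATG7-/- vesicles. The ATG12-/- values all lay inside the range of the ATG7-/- values (0.10, SE 0.20, adjusted p = 0.726, limma). Wild-type vesicles held 8964 ± 1942. In cells U8 was lower in the ATG12-/- clone, at 4502 ± 165 against 6935 ± 274 (-0.62, adjusted p = 0.00557).

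Most snoRNAs lie within host genes, from whose introns they are released, and the members of a host differed in size of change. All 4 snoRNAs of SNHG12 were called higher, with a median of 1.74: ACA61 at 3.12, HBII-420 (SNORD99) at 2.05, ACA16 (SNORA16A) at 1.43 and ACA44 (SNORA44) at 1.12. Both snoRNAs of SNHG5 rose, U50 by 2.15 and U50B by 1.59. Of 8 TAF1D snoRNAs 7 rose (median 1.27), led by ACA40 at 1.99, and of 7 in EIF4A1 and EIF4A2 6 rose (median 1.22). GAS5 had 9 of 10 called higher (median 1.15), where U74 changed by 1.45 and U77 by 0.11 (not called). SNHG1 had 5 of 8 (median 0.84), RPL13A 3 of 4 (median 0.79) and ZFAS1 1 of 3 (median 0.51). None of these snoRNAs was called lower, and neither was any other of the 256 snoRNAs and scaRNAs tested. Of those 256, 197 were called higher (median 1.06), and no host was tested against them. Members of 1 host share a precursor and are not independent.

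**Figure D3:**
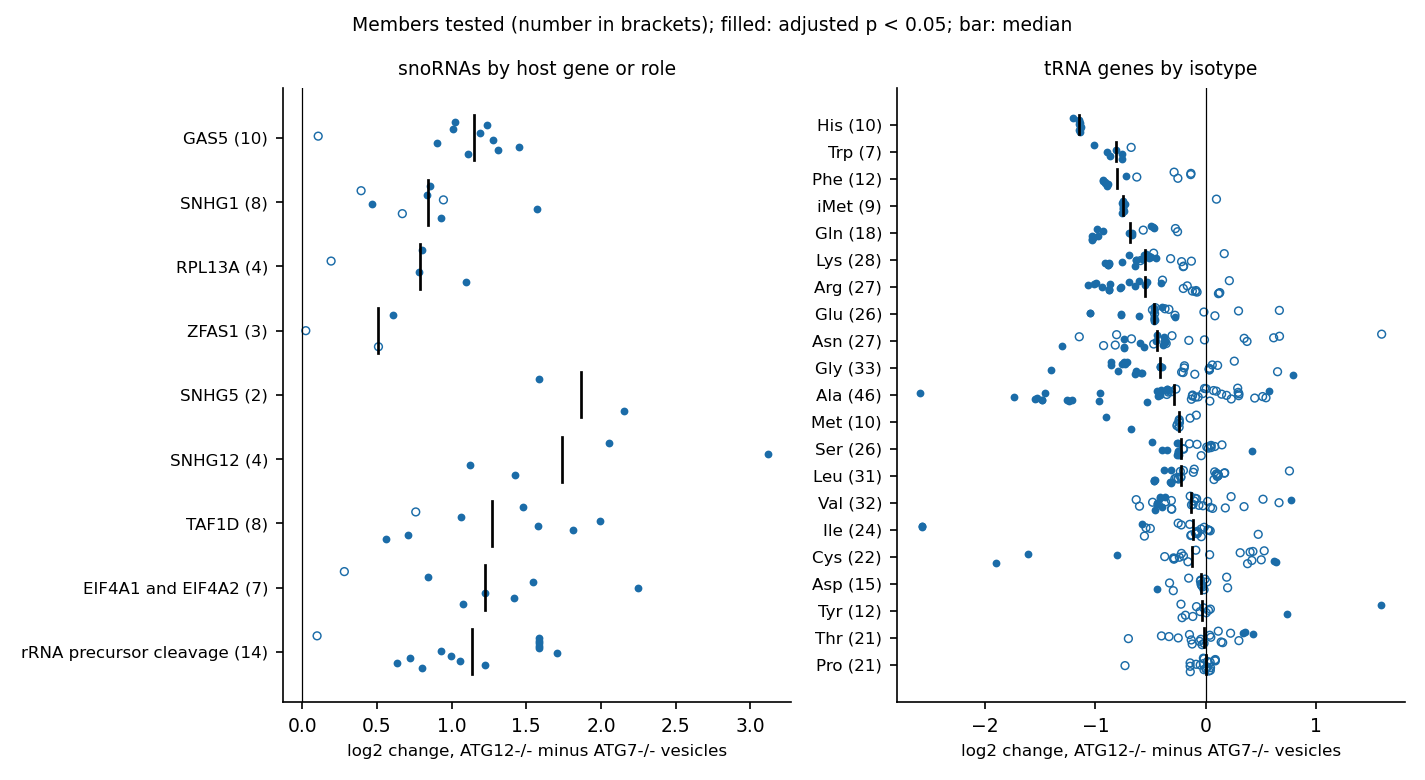
Log2 change between ATG12-/- and ATG7-/- vesicles for snoRNAs grouped by host gene or role (left) and for tRNA genes grouped by isotype (right); each point is 1 feature, filled where called by limma, and bars are medians. Every host list has a median above 0, while the medians of the isotypes shown, those with 7 or more genes tested, range from histidine (-1.14) to proline (0.00).

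Other nuclear RNAs that are bound by specific proteins also differed. hTR, the RNA template of telomerase and itself an H/ACA-type RNA, held 1860, 1940 and 2010 normalised reads in ATG12-/- vesicles and 789.9, 1038 and 574.2 in ATG7-/- vesicles. It rose by 1.31 (SE 0.19, adjusted p = 0.000118, limma) with no overlap, above the wild-type mean of 950.9 ± 170. U2, which binds the branch point in splicing, had 12796, 15321 and 18694 against 6525, 7461 and 6991. It rose by 1.14 (SE 0.14, adjusted p = 2.81e-05). U1, which binds the 5' splice site, rose by 0.85 (SE 0.13, adjusted p = 0.000167), from 183958 ± 15285 to 333830 ± 48064. All 3 ATG12-/- libraries were above all 3 ATG7-/- libraries for both.

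U4, the partner of U6, rose by 0.43 (SE 0.15, adjusted p = 0.0305, limma), from 205.0 ± 18.8 to 277.4 ± 31.2. That call ended without ATG12-/- vesicle replicate 1 (0.46) or 3 (0.34), without ATG7-/- vesicle replicate 1 (0.38) or 2 (0.42), with TMM factors from microRNAs (0.37) and with no filter (adjusted p = 0.0527 to 0.158 over these, 0.00744 to 0.158 over all alternatives). U5 (-0.07, SE 0.16) and U6 (0.24, SE 0.16) were not called, and U6 was called only without ATG7-/- vesicle replicate 2 (0.41, adjusted p = 0.0438, against 0.0438 to 0.631 over its alternatives). U7, which acts in histone mRNA processing, had 106.2, 87.5 and 115.0 against 89.7, 153.0 and 120.7, overlapping values (-0.21, SE 0.22).

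The cytoplasmic Y and vault RNAs were not called higher. RNY1 (0.09, SE 0.13), RNY3 (-0.02, SE 0.12) and RNY5 (-0.10, SE 0.12) were not called. RNY4 had 6133, 6568 and 7020 normalised reads in ATG12-/- vesicles and 8716, 8502 and 8808 in ATG7-/- vesicles. It was lower in all 3 ATG12-/- libraries, by -0.40 (SE 0.10, adjusted p = 0.00584, limma), a call lost with TMM factors from microRNAs (-0.46, adjusted p = 0.0533, against 0.000376 to 0.0533 over its alternatives). Among the vault RNAs VTRNA1-2 was lower (-0.51, SE 0.13, adjusted p = 0.00547), at 271.6, 273.2 and 264.0 against 390.3, 366.7 and 396.5. VTRNA1-1 (0.17, SE 0.13) and VTRNA1-3 (-0.07, SE 0.17) were not called.

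**Figure D4:**
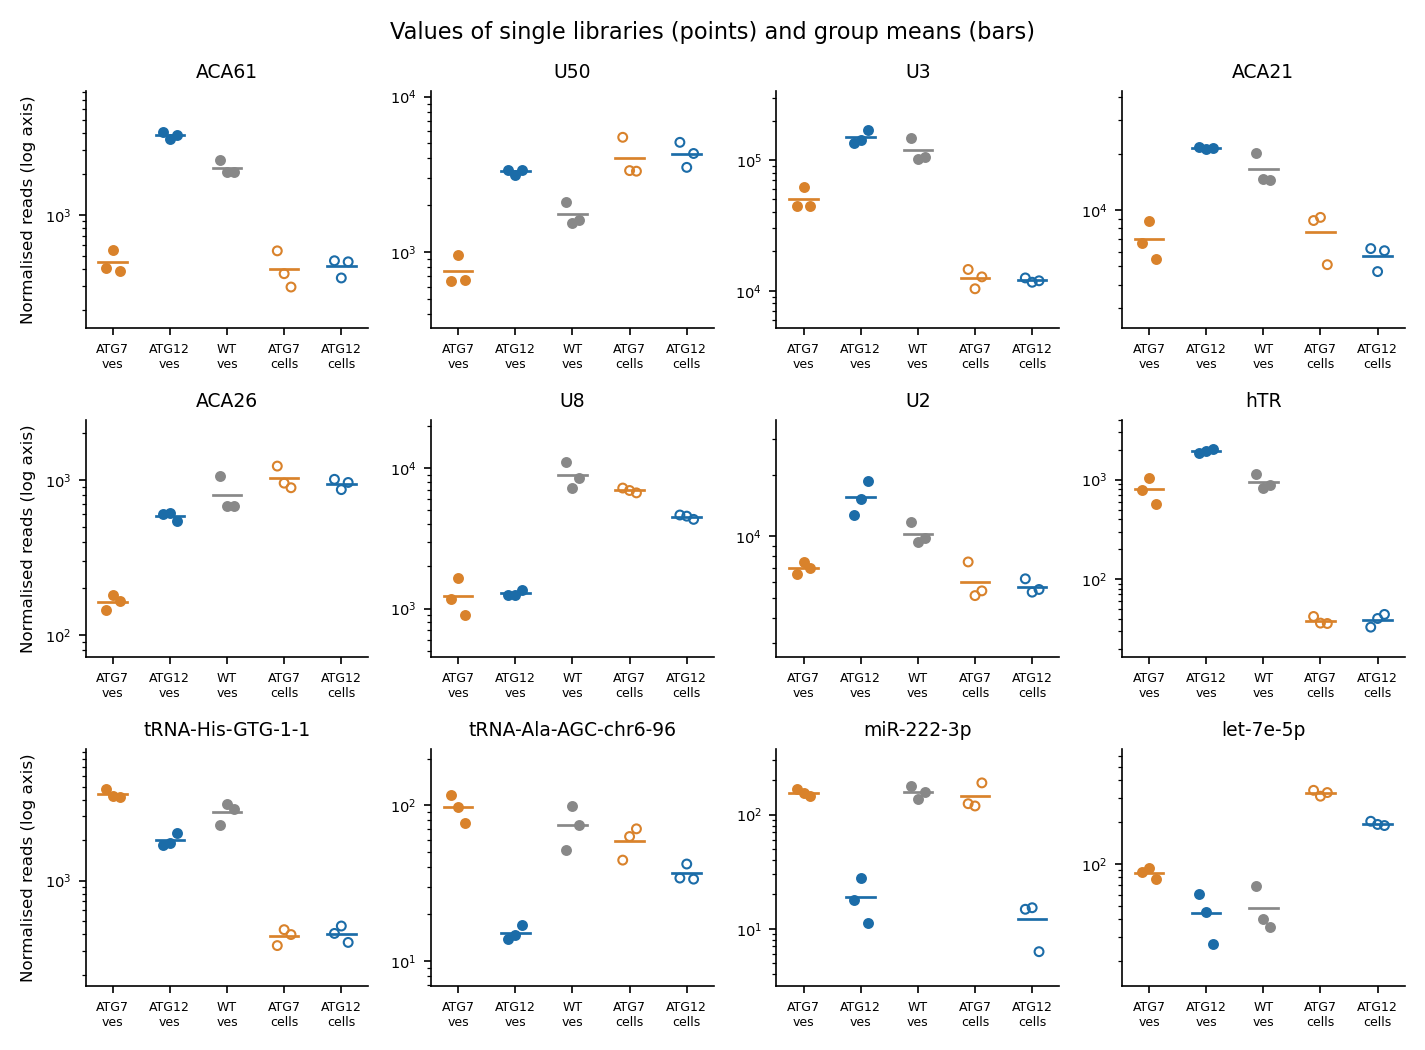
Normalised reads (vertical log axes) of 12 small RNAs in each library of ATG7-/-, ATG12-/- and wild-type (WT) vesicles (filled) and of ATG7-/- and ATG12-/- cells (open), with group means as bars. The vesicle groups stand apart for every RNA shown but U8, and miR-222-3p is lower in both the vesicles and the cells of the ATG12-/- clone.

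tRNAs made up most of the reads and fell in ATG12-/- relative to ATG7-/- vesicles, unevenly by isotype. Copies of 1 tRNA often hold nearly the same reads, so gene counts overstate the number of separate measurements. With 1 value for each set of copies, 103 tRNA sets were lower and 10 higher, and most sets were called in neither direction. Over all 683 features tested in that way 114 were lower and 219 higher. All 10 histidine genes, which form 2 such sets, were called lower (median -1.14). His-GTG-1-1 had 1835, 1905 and 2248 normalised reads in ATG12-/- and 4799, 4240 and 4159 in ATG7-/- vesicles, a change of -1.14 (SE 0.14, adjusted p = 3.06e-05, limma). The groups did not overlap, and wild-type vesicles averaged 3234 ± 576.

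Among isotypes with 7 or more genes tested, the next lowest medians over genes were those of tryptophan (6 of 7 genes lower, median -0.81), phenylalanine (7 of 12, -0.81), initiator methionine (8 of 9, -0.75), glutamine (15 of 18, -0.69), lysine (20 of 28, -0.55), arginine (16 of 27, -0.55) and glutamate (16 of 26, -0.47). For phenylalanine and initiator methionine these medians rested on copies. With 1 value per set of copies, phenylalanine had 2 of 7 sets lower and a median of -0.29, and initiator methionine 1 of 2 sets and -0.33. The medians over sets were -0.82 for tryptophan (4 of 5 sets lower), -0.68 for glutamine (7 of 10), -0.63 for arginine (13 of 19), -0.56 for lysine (12 of 19) and -0.43 for glutamate (8 of 18). Of the groups with fewer genes, nmt-Gln had both of its 2 genes called lower (median -1.48), nm-Tyr had 0 of 3 called (-0.50) and nmt-Ser 0 of 2 (0.50). iMet-CAT-1-1, which starts translation, fell by 0.76 (SE 0.16, adjusted p = 0.00219, limma) and Gln-CTG-1-1 fell by 1.03 (SE 0.18, adjusted p = 0.000418). Glu-CTC-1-2, the most abundant tRNA feature, held 175664, 182100 and 188094 against 262978, 257809 and 233402. It fell by 0.47 (SE 0.08, adjusted p = 0.000615), and every ATG12-/- library was the lower. Proline genes did not follow: 0 of 21 were called, with a median of 0.00. Of 21 threonine genes 3 were higher and 0 lower (median -0.02).

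Among tRNA genes with a mean of at least 50 in 1 group and no overlap, the steepest falls were in alanine genes. Ala-AGC-chr6-96 had 13.8, 14.6 and 16.97 normalised reads in ATG12-/- and 116.0, 98.1 and 76.9 in ATG7-/- vesicles, a change of -2.59 (SE 0.25, adjusted p = 1.17e-05, limma). Ala-AGC-19-1 fell by 1.74 (SE 0.29) and Ala-AGC-16-1 by 1.54 (SE 0.34). Over all 46 alanine genes 19 were lower, 1 was higher and the median was -0.29. That is near the rate of all tRNA genes, with 188 of 467 lower, 11 higher and a median of -0.26. The largest rises by the rule for named features were small: Gly-CAC-chr1-17 at 0.79 (SE 0.21, adjusted p = 0.00676), Val-CAC-8-1 at 0.77 (SE 0.20) and Tyr-GTA-4-1 at 0.74 (SE 0.19). Gly-CAC-chr1-17 and Val-CAC-8-1 held nearly equal values in every library (108.1 and 109.0 on average in ATG12-/- vesicles), so they may not be separate measurements. Without ATG7-/- vesicle replicate 1, 125 tRNA genes were called lower in place of 188.

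Few microRNAs differed, and the largest change was in miR-222-3p and miR-221-3p. Both come from 1 locus on chromosome X and share their seed, the bases 2 to 8 that pair with targets (capitals, RefSeq, GRCh38.p14).
miR-221-3p: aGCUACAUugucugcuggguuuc
miR-222-3p: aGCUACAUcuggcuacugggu
miR-222-3p (chrX:45747036-45747056, minus strand) had 17.9, 27.8 and 11.3 normalised reads in ATG12-/- and 166.2, 153.0 and 144.6 in ATG7-/- vesicles. It was lower by -3.04 (SE 0.26, adjusted p = 5.22e-06, limma). miR-221-3p (chrX:45746180-45746202, minus strand) had 6.89, 3.98 and 5.66 against 39.6, 42.0 and 29.2 (-2.55, SE 0.29, adjusted p = 2.15e-05). The cells differed in the same way: miR-222-3p averaged 12.1 ± 5.05 in ATG12-/- and 144.1 ± 39.1 in ATG7-/- cells. The gap between the vesicle and the cell difference was called for neither miR-222-3p nor miR-221-3p (0.48, SE 0.41, adjusted p = 0.402 and 0.39, SE 0.42, adjusted p = 0.509). Wild-type vesicles held 157.4 ± 21.9 of miR-222-3p.

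The let-7 family represses growth genes, and its members, which share a seed, were called in both directions.
let-7a-5p: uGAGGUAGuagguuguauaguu
let-7b-5p: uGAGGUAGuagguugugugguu
let-7e-5p: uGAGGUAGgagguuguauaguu
let-7a-5p, the most abundant, was higher at 1332, 1094 and 1062 against 801.7, 822.2 and 932.3 (0.44, SE 0.17, adjusted p = 0.0429, limma). let-7e-5p was lower at 60.7, 45.1 and 26.4 against 87.03, 93.4 and 78.2 (-1.03, SE 0.31, adjusted p = 0.0140). let-7b-5p, at 110.1 ± 16.3 against 68.2 ± 5.51, did not pass (0.67, SE 0.31, adjusted p = 0.0908). The call of let-7a-5p ended without any 1 of the ATG12-/- vesicle libraries, without ATG7-/- vesicle replicate 1 or 2 (0.34 to 0.51, adjusted p = 0.0575 to 0.17), when replicate 3 of the wild-type vesicles was left out (adjusted p = 0.0528) and with TMM factors from microRNAs (adjusted p = 0.0991). That of let-7e-5p ended without ATG12-/- vesicle replicate 3 (-0.71, adjusted p = 0.0659) and with edgeR (-0.79, adjusted p = 0.0525). let-7b-5p was called in 7 alternatives, among them edgeR (adjusted p = 0.0281), DESeq2 (adjusted p = 0.0268) and 2 fits that left out 1 wild-type vesicle library, replicate 1 (adjusted p = 0.0217) or replicate 2 (adjusted p = 0.0228). Over all alternatives the adjusted p ran from 0.00411 to 0.17 for let-7a-5p, from 0.00148 to 0.0659 for let-7e-5p and from 0.00573 to 0.225 for let-7b-5p. Of 6 let-7 members tested 1 was higher, 1 lower and 4 were not called, where of all 113 microRNAs 14 were higher and 8 lower. In cells let-7e-5p was lower too (-0.73, adjusted p = 0.0027, limma) and let-7b-5p higher (0.65, adjusted p = 0.0126). let-7a-5p was not called there (0.38, adjusted p = 0.0547). The gap between the vesicle and the cell difference was called for none of these 3 (-0.29, 0.02 and 0.06 in the same order). Of the 6 members 1 was called in that comparison, let-7c-5p (0.80, adjusted p = 0.0375).

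A shared seed also joined miR-25-3p and miR-92a-3p, and miR-19a-3p comes from the same cluster as miR-92a-3p.
miR-25-3p: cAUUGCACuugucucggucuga
miR-92a-3p: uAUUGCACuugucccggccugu
miR-19a-3p: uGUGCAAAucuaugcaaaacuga
miR-25-3p was higher (0.40, SE 0.14, adjusted p = 0.0312, limma), at 1383 ± 18.1 against 1046 ± 66.5. miR-92a-3p, at 4151 ± 108 against 4471 ± 160, was not called (-0.11, SE 0.15). miR-19a-3p fell from 47.5, 53.7 and 31.8 to 15.2, 11.9 and 15.1 (-1.56, SE 0.38, adjusted p = 0.00443), as it did in cells (-1.27, adjusted p = 0.00353). miR-19b-3p, of the same family, was called lower (-0.66, adjusted p = 0.0285), although its values of 93.8, 108.7 and 130.1 overlapped with 189.9, 226.6 and 122.0 in ATG7-/- vesicles. That call ended without ATG12-/- vesicle replicate 1 or 2, and without ATG7-/- vesicle replicate 1 or 2 (-0.65 to -0.47, adjusted p = 0.0694 to 0.118, against 0.00337 to 0.118 over its alternatives). Of 11 members of the miR-17-92 cluster and its paralogs, 1 was higher, 2 were lower and 8 were not called (median -0.18). Over all 113 microRNAs 14 were higher and 8 lower (median 0.01). miR-25-3p lost its call without ATG12-/- vesicle replicate 1, 2 or 3, without ATG7-/- vesicle replicate 1 or 3, and with TMM factors from microRNAs (0.34 to 0.41, adjusted p = 0.0719 to 0.118, against 0.00218 to 0.118 over all alternatives).

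Of the HOX-cluster and hypoxia microRNAs, miR-196a-5p and miR-210-5p moved in opposite directions.
miR-196a-5p: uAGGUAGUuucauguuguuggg
miR-210-5p: aGCCCCUGcccaccgcacacug
miR-196a-5p, encoded in the HOX clusters, rose from 118.7, 112.1 and 155.2 to 171.0, 230.7 and 260.2 (0.77, SE 0.21, adjusted p = 0.00889, limma), and rose in cells as well (0.54, adjusted p = 0.0109). Of 4 HOX-cluster microRNAs tested it was the only member called, where of all 113 microRNAs 14 were higher and 8 lower. miR-210-5p, of the hypoxia-induced MIR210, fell from 55.4, 39.7 and 62.3 to 24.8, 18.6 and 22.6 (-1.20, SE 0.43, adjusted p = 0.0349). Its call ended without any 1 of the ATG12-/- vesicle libraries, without ATG7-/- vesicle replicate 1 or 3, with TMM and in the fit over all 18 libraries (-1.29 to -1.07, adjusted p = 0.0564 to 0.116, against 0.00112 to 0.116 over all alternatives). The other arm, miR-210-3p, had an adjusted p of 0.0502 (-0.90, SE 0.35) and was called in 13 of 22 alternatives (0.00768 to 0.164). It held 37.2, 23.9 and 26.4 normalised reads in ATG12-/- and 55.4, 43.2 and 66.3 in ATG7-/- vesicles. The ATG7-/- values are close to those of miR-210-5p, so the 2 arms may not be separate measurements.

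miR-99b-5p was lower, at 80.4 ± 2.91 against 114.5 ± 11.9 (-0.50, SE 0.16, adjusted p = 0.0215, limma). It lost its call without ATG12-/- vesicle replicate 1 or 2, without ATG7-/- vesicle replicate 1 or 2, with TMM, edgeR or no filter, and in the fit over all 18 libraries (-0.51 to -0.38, adjusted p = 0.0561 to 0.125, against 0.0127 to 0.125 over all alternatives). miR-6724-5p, whose annotated copies lie in ribosomal DNA repeats, stood at 197949, 219414 and 267734 against 144265, 186575 and 170412 (0.45, SE 0.16, adjusted p = 0.0382). That call ended without ATG12-/- vesicle replicate 2 or 3, without ATG7-/- vesicle replicate 1 or 3 (0.33 to 0.47, adjusted p = 0.0675 to 0.158), and in 5 other alternatives, among them the fit without wild-type vesicle replicate 3 (adjusted p = 0.0512, with 0.00333 to 0.158 over all alternatives). Over all microRNAs, 5 to 14 were called higher and 4 to 8 lower when 1 of the 6 libraries was left out.

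Markers of blood and liver RNA served as a check, since these cells are of neither tissue. Of 9 such microRNAs listed, 4 were tested and 0 were called between the clones, where of all 113 microRNAs 14 were called higher and 8 lower. Their summed level was 271.8 to 343.3 normalised reads in ATG12-/- vesicles and 203.2 to 289.1 in ATG7-/- vesicles, overlapping ranges, but only 6.68 to 8.39 and 20.7 to 22.2 in the cells. Wild-type vesicles held 106.5 to 151.8, below every vesicle library of the 2 knockouts. In vesicle libraries 0 to 3 of the 9 stood at 0. miR-486-5p, abundant in red blood cells, had 193.0, 151.2 and 152.7 against 129.2, 88.8 and 161.8 in vesicles (0.42, SE 0.21, adjusted p = 0.128, limma) and 1.53 ± 0.331 against 7.64 ± 3.38 in cells. It passed only without ATG7-/- vesicle replicate 3 (0.61, adjusted p = 0.0349, against 0.0349 to 0.498 over its alternatives). The part of such RNA in the other results was not tested.

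Whether the vesicle differences were those of the cells was tested with the difference of the 2 differences over all 18 libraries. In cells, 853 features were tested, of which 48 were higher in the ATG12-/- clone (5.63%) and 123 lower (14.4%). snoRNAs went the other way there: of 272 snoRNAs and scaRNAs tested in cells 1 was higher, 74 were lower and the median was -0.25. Of the 905 features fitted over both kinds of library 387 were called (42.8%): the vesicle difference exceeded the cell difference for 245 (27.1%) and was below it for 142 (15.7%). For snoRNAs and scaRNAs these counts were 221 and 0 of 272, with a median of 1.299 against 0.08 for all features. For tRNA genes they were 5 and 142 of 489, with a median of -0.32. Library totals lowered the median over all features by 0.12 in this comparison.

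Single RNAs show what these counts hold. For ACA61 the vesicle difference exceeded that of the cells by 3.03 (SE 0.27, adjusted p = 2.43e-07, limma), and for U3 by 1.63 (SE 0.26, adjusted p = 4.63e-05). ACA10 (SNORA10, in RPS2) rose in vesicles by 0.75 (SE 0.14) while it was lower in cells (-0.63, adjusted p = 0.0301). Of the 98 C/D box snoRNAs that rose in vesicles, 29 were called lower in cells, 1 was called higher and 68 were not called. The whole C/D class had 53 of 150 entries lower in cells and 1 higher. Of the 81 H/ACA box snoRNAs that rose, 12 were called lower in cells, 0 higher and 69 were not called. Their whole class had 17 of 98 lower there and 0 higher. Whether the snoRNAs that rose differed from their class in cells was not tested. The snoRNA called higher in both vesicles and cells was HBI-43 (SNORD17, 0.98 in vesicles and 0.57 in cells). It was picked out after its values were seen.

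tRNA isotypes differed in this respect. The fall of His-GTG-1-1 in vesicles was not called in cells (0.07, adjusted p = 0.836), and the difference between the 2 was -1.21 (SE 0.23, adjusted p = 0.000333, limma). All 10 histidine genes were called in that comparison. Gln-CTG-1-1 fell in both, from 996.3 ± 460 to 448.5 ± 108 in cells (-1.08, adjusted p = 0.0134), and 0 of 22 glutamine genes were called in the comparison of vesicles with cells. Glu-CTC-1-2 fell in vesicles but rose in cells (0.70, adjusted p = 0.0247). VTRNA1-2 was lower in both, more so in cells (-1.92, adjusted p = 4.51e-05), where it held 145.7 ± 24.9 against 560.5 ± 145.

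Across features, the changes in vesicles and in cells, which share no library, correlated weakly for snoRNAs and scaRNAs (Pearson's r = 0.308, Spearman's rho = 0.301, 256 features) and for tRNA genes (r = 0.302, rho = 0.192, 436 features). For 95 microRNAs r was 0.647 and rho 0.492, and without miR-221-3p and miR-222-3p r was 0.465. These are descriptions over features of the same clones, many of which are copies or share a host, and not over independent samples.

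**Figure D5:**
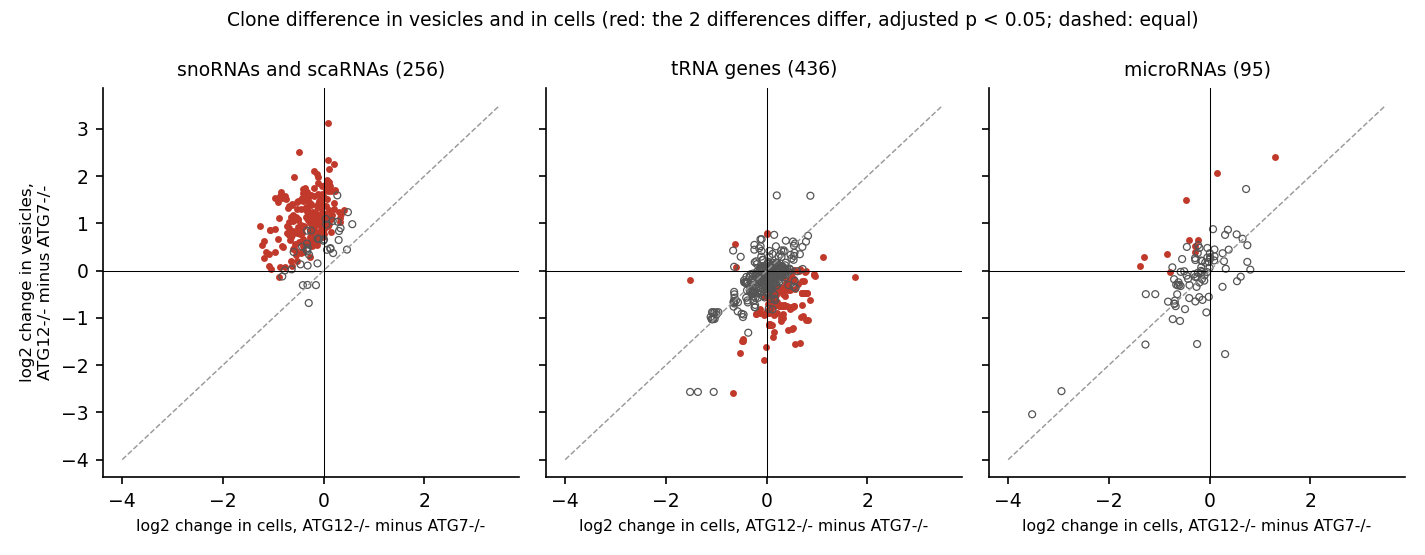
Log2 change between the ATG12-/- and ATG7-/- clones in vesicles (vertical axis) against that in cells (horizontal axis) for features tested in both, by class; red points are those whose 2 differences differ at adjusted p < 0.05 (limma) and the dashed line marks equality. Most snoRNAs lie above the line, many tRNA genes below it, and miR-221-3p and miR-222-3p near it at the lower left.

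Levels in wild-type vesicles place the 2 knockouts. For 106 of the 140 C/D box snoRNAs tested the mean was lowest in ATG7-/-, intermediate in ATG12-/- and highest in wild-type vesicles, and for 26 the ATG12-/- mean was above the wild type. The same counts were 77 and 15 of 92 for H/ACA box snoRNAs and 19 and 5 of 24 for scaRNAs. These orders are of means, depend on the size factors and carry no test. Of the 26 C/D entries, 5 are the copies of U3. By share of reads U3 was not higher in ATG12-/- than in wild-type vesicles (19.8% ± 1.17 and 20.1% ± 2.9). ACA61 and U50 were among those whose ATG12-/- mean was the highest of the 3.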

How the data were processed

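Reads of the 6 vesicle libraries, the wild-type vesicles and the cells came as 1 deposited table. The submitters' processing notes name DESeq2, bedtools, Bowtie2 2.3, cutadapt 2.3 and the build GRCh38. The deposited signal is not raw counts: in every library 100% of values were whole multiples of the value of 1 read (tolerance 1e-06), so the authors' values were read as reads divided by 1 size factor. limma 3.58.1 (R 4.3.3, trend) was run on log2 (value + 1) over the 9 vesicle libraries, for features reaching 10 in 3 libraries, and over 18 libraries for the difference between vesicles and cells. edgeR 4.0.16 and DESeq2 1.42.0 on the recovered reads were alternatives; edgeR called 236 features higher and 149 lower, DESeq2 210 and 199. On simulated reads for the vesicle comparison of 850 features, 93% of 2-fold and 96% of 4-fold changes were recovered, and 4.06% of calls were false. The simulated reads had a common dispersion, as many rises as falls placed at random, and known size factors. In the data whole classes moved and the size factors are uncertain, so these rates cannot be taken for those of the calls made here. Of 400 snoRNA and scaRNA names 396 matched 1 symbol; tRNA positions were not analysed here. How reads matching several copies were counted is not given in the sources used here. PCR copies are not independent molecules, and whether replicates came from separate cultures is known only from the label. Members and lists were chosen with earlier results of these data known. Text features are called ones without overlap and with a mean of at least 50 in 1 group (the 6 largest changes per direction for snoRNAs with scaRNAs, 4 for microRNAs, 3 for tRNAs), members of fixed lists, all tested small classes and the most abundant of each class.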

Additional observations from a re-analysis of the deposited data

Results flagged for a closer look

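Each value here is the ATG12-/- minus ATG7-/- log2 difference in vesicles minus that in cells, from limma over 18 libraries, and each passed an adjusted p of 0.05. The difference was above 0 for 245 features and below 0 for 142. Among H/ACA box snoRNAs it was 3.03 for ACA61, 2.26 for ACA38, 2.05 for ACA21, 2.05 for HBI-61, 1.49 for U17b, 1.49 for E3, 1.38 for ACA10, 1.23 for ACA16, 0.99 for U17a and 0.80 for ACA44. Among C/D box snoRNAs it was 3.00 for snR38A, 2.29 for U18C, 2.19 for HBII-420, 2.04 for U50, 1.90 for U50B, 1.63 for U3, 1.44 for U22 and 0.90 for U13. U8 also had a difference (0.72), although its vesicle groups overlapped, since it was lower in ATG12-/- cells.

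The scaRNA ACA26 stood at 1.95, hTR at 1.28, U2 at 1.21, U1 at 0.90, U4 at 0.89, U7 at 0.69 and VTRNA1-2 at 1.41. For U7 and VTRNA1-2 the cells differed more than the vesicles. Among tRNA genes the value was -2.11 for Ala-AGC-16-1, -1.92 for Ala-AGC-chr6-96, -1.21 for Ala-AGC-19-1, -1.21 for His-GTG-1-1, -1.16 for Glu-CTC-1-2 and -1.10 for iMet-CAT-1-1. It was 0.79 for Gly-CAC-chr1-17 and 0.77 for Val-CAC-8-1, which hold nearly equal values. Among microRNAs it was 2.13 for miR-486-5p, 1.90 for miR-664b-3p, 1.11 for miR-4485-3p and 0.70 for miR-25-3p. In cells miR-486-5p was too low to be tested, at 1.29, 1.91 and 1.40 normalised reads in the ATG12-/- clone and 6.59, 4.91 and 11.4 in the ATG7-/- clone, and its vesicle change of 0.42 was not called. Its value of 2.13 therefore rests largely on a few reads in cells.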

How the results depend on the processing

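The counts of called features moved within 1.5 times under all but 2 alternatives. With 1 value per set of copies 683 features were tested, and 114 were lower in ATG12-/- vesicles in place of 198. Lower calls among tRNAs went from 188 genes to 103 sets of copies, while all higher calls went from 226 to 219. Leaving out 1 library at a time, wild-type ones included, gave 186 to 230 features higher and 131 to 218 lower; the lowest count of lower features came without ATG7-/- vesicle replicate 1. For the difference between vesicles and cells, leaving out 1 library gave 216 to 244 higher and 106 to 155 lower. edgeR moved the median of all features in vesicles by 0.13. No snoRNA or scaRNA was called lower in vesicles in any alternative but the fit over all 18 libraries (1).

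Same-numbered replicates of the 2 vesicle groups did not deviate together (r = -0.0425, -0.0156 and 0.0498, across features), and they did not each correlate best with their own number. With a replicate block 206 features were higher and 168 lower. The difference in C/D share ran from 13.2 to 14.5 percentage points when 1 library was left out, and was 4.16 with U3 counted once, a setting chosen after seeing the data, as were the fits without wild-type libraries. The difference in microRNA share, 1.71 percentage points, was 0.046 without miR-6724-5p, 0.550 with tRNA copies counted once and 2.67 with U3 counted once. No share test can pass its threshold with 3 against 3 libraries. Depth limits features near the minimum, where 1 read is up to 1.89 normalised reads.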

Other observations

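The 2 microRNA entries outside the rule for named features were picked out after their values were seen. miR-4485-3p, whose sequence is shared with mitochondrial ribosomal RNA, had 46.9, 34.5 and 58.5 normalised reads in ATG12-/- vesicles and 14.5, 5.84 and 5.30 in ATG7-/- vesicles (2.41, SE 0.33, adjusted p = 7.12e-05, limma). miR-664b-3p, whose gene lies in DKC1, had 26.2, 21.2 and 24.5 against 6.59, 4.67 and 3.98 (2.06, SE 0.27, adjusted p = 5.23e-05). Wild-type vesicles held more of both, 159.8 ± 19.3 and 76.8 ± 13.2 (SD, n = 3).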
